A study of Homo sapiens with 24 samples.

Results

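The genes described are the ligands, receptors and SMAD proteins of the TGF-β pathway: *TGFB1*, *TGFB2*, *TGFB3*, *TGFBR1*, *TGFBR2*, *TGFBR3*, *SMAD2*, *SMAD3*, *SMAD4* and *SMAD7*. They were chosen by symbol, and all 10 were among the 18417 genes measured, each by the transcript cluster that carries that symbol alone and, where a gene had several, has the highest mean over the 24 arrays. RNA came from 4 human non-small cell lung cancer lines that all carry mutant K-ras, namely H2009 and H441, which depend on K-ras for survival, and A549 and H460, which do not. Each line had been infected with lentivirus and kept in puromycin, and expressed either a scrambled non-targeting shRNA (δscr) or δ193, an shRNA against the coding region of *PRKCD*, the gene of protein kinase C delta (PKCδ). There were 3 replicate arrays in each of the 8 groups. Cells grew in medium with serum, parental cells were not analysed here, and the labels name no added ligand. The sources do not say whether the transduced cells were pools or clones. Only 1 scrambled and 1 PKCδ sequence was used, so an effect of that sequence itself and an effect of PKCδ loss cannot be told apart.

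TGF-β ligands are secreted as latent dimers that αV integrins and proteases release from the matrix. The active ligand is bound by TGFBR2, which recruits and phosphorylates TGFBR1, while TGFBR3 (betaglycan) is a co-receptor that presents ligand, TGF-β2 above all, to TGFBR2. TGFBR1 then phosphorylates SMAD2 and SMAD3, which join SMAD4 and enter the nucleus, and SMAD7 is an inhibitor induced by the pathway that turns the receptors over. In lung epithelium the pathway restrains proliferation and can also induce matrix genes and a mesenchymal form.

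The values are log2 intensities after robust multi-array averaging (RMA), and a difference was called when its adjusted p was under 0.05 (limma, Benjamini-Hochberg over all 18417 genes) and its size at least 25%. Array medians lay between 4.78 and 4.91, and the median of the gene means was 5.79. *PRKCD* was lower on every δ193 array than on every δscr array of the same line, by 2.25 (H2009), 2.40 (H441), 1.26 (A549) and 2.03 (H460) on the log2 scale. The H441 δ193 arrays resembled each other least (correlations 0.982 to 0.990, against at least 0.992 in the other groups), and their line had a residual variance 2.44 times the median for the remaining lines. The fit shares 1 estimate of spread over the lines, so beside each H441 call the adjusted p with that line fitted alone is given. Keratins KRT7, KRT8 and KRT18 were high in all 4 lines, for example 11.38, 11.07, 11.20 and 11.25 for KRT7 in δscr cells. The other defining epithelial markers were unequal, with EPCAM at 11.20 in H2009 δscr cells against 5.89 (H441), 4.71 (A549) and 5.45 (H460), and CDH1 at 11.23 against 6.41, 8.73 and 5.598. KRT19 read 10.74 in H2009 δscr cells against 8.86 (H441), 5.24 (A549) and 6.70 (H460), and CLDN4 7.97 against 7.28, 5.74 and 7.25. In δscr cells all 7 epithelial markers were above the median of the gene means in H2009 and H441, 4 in A549 and 5 in H460. The low EPCAM and CDH1 of the arrays labelled H441 go against what is known of that epithelial line. The study's methods state that the cell lines were profiled for authentication. Whether the RNA on these arrays came from H441 was not tested here, which bears on every H441 value and on the class comparison. Of the 4 endothelial markers measured none was above the median of the gene means in any line, and of the 6 fibroblast markers 1 was. Of the 4 immune markers 1 was in A549 and 0 in the other lines.

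In δscr cells, the lines differed most in *TGFB2*, *TGFBR3* and *SMAD3*, and little in *TGFB1* and *SMAD2*. Among the 10 genes, 7 differed between H2009 and H441 (against 49.3% of all genes), 8 between H2009 and A549 (41.4%), 6 between H2009 and H460 (35.5%), 5 between H441 and A549 (48.4%), 3 between H441 and H460 (45.4%) and 5 between A549 and H460 (38.9%). These 6 comparisons share their δscr arrays. H441 and H460, which belong to different K-ras classes, were the pair with the fewest called differences among the 10 genes.

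Of the ligands, *TGFB2* had the widest range. Its δscr arrays read 8.84, 8.53 and 8.52 in A549, 8.11, 8.20 and 7.95 in H2009, 6.23, 6.17 and 6.05 in H441, and 5.95, 5.73 and 6.04 in H460. A549 stood above H2009 (difference 0.55, adjusted p = 0.00992) and H2009 above H441 (1.94, adjusted p = 8.32e-10), whereas H441 and H460 were not told apart (0.24, adjusted p = 0.24). From the lowest line to the highest this is 6.61-fold. *TGFB3* ran almost the other way, with means of 5.86 ± 0.09 (SD, n = 3) in H441, 5.46 ± 0.16 in H460, 4.63 ± 0.04 in H2009 and 4.42 ± 0.04 in A549. The step from H2009 to A549 did not pass (adjusted p = 0.134). *TGFB1* spanned 0.34 in all, and only its difference between H2009 and A549 was called (adjusted p = 0.0125).

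The receptor order differed from gene to gene. *TGFBR1*, the signalling receptor kinase, was highest in H2009 (8.73 ± 0.09), next in A549 (8.26 ± 0.35, adjusted p = 0.00506 against H2009), and not told apart between H441 (7.89 ± 0.27) and H460 (7.82 ± 0.04, adjusted p = 0.712). *TGFBR2*, the ligand-binding kinase, lay between 8.49 ± 0.12 in H2009 and 9.05 ± 0.14 in H441, and none of its neighbours in the order H441, A549, H460, H2009 was called different, although H460 and H2009 differed by 0.31 at an adjusted p of 0.0455. H2009 was set apart by *TGFBR3*, which read 4.89, 4.76 and 5.47 there, below the median of the gene means, and 6.55 to 7.16 on the δscr arrays of the other lines. The gap from H460 to H2009 was 1.54 (adjusted p = 7.22e-08).

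*SMAD3* separated all 4 lines from each other. Its means fell from 10.22 ± 0.03 in A549 to 9.63 ± 0.04 in H2009, 8.97 ± 0.08 in H441 and 8.58 ± 0.04 in H460, and each step passed (largest adjusted p = 0.000208), a span of 3.11-fold. *SMAD2*, which has the same upstream receptor, spanned 0.26 and was called in no pair of lines. *SMAD4*, the shared partner, was higher in H2009 (9.63 ± 0.05) than in H460 (9.18 ± 0.02, adjusted p = 3.68e-05) and lowest in H441 (8.69 ± 0.08). The inhibitor *SMAD7* was higher in A549 (5.63 ± 0.06) than in H2009 (5.22 ± 0.13, adjusted p = 0.0325), with H441 and H460 at 4.92 ± 0.05 and 4.90 ± 0.24. *TGFB3* and *SMAD7* have a mean over all arrays below the median of the gene means, and no background level was measured for these arrays.

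**Figure D1:**
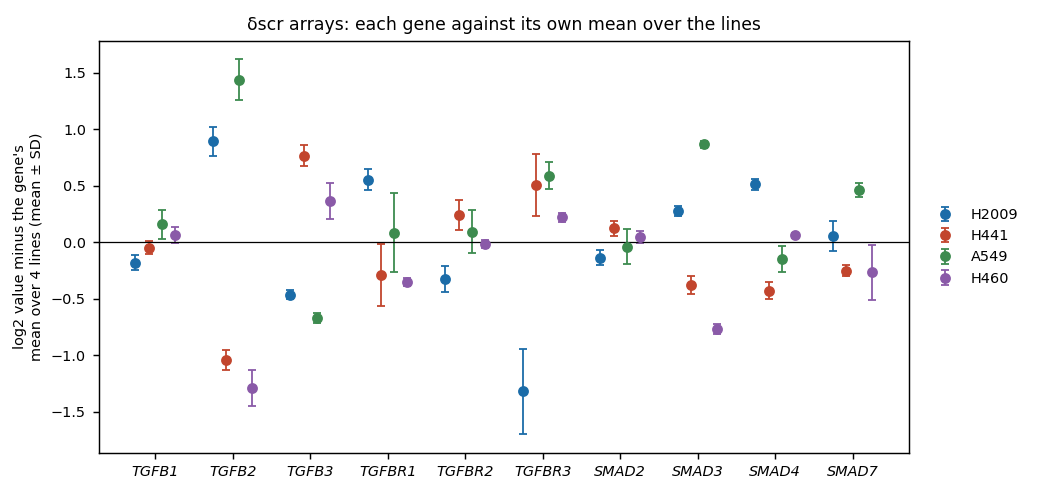
δscr arrays: for each gene on the horizontal axis, the mean ± SD of 3 arrays per line (log2 RMA value) is drawn after subtracting that gene's own mean over the 4 lines, so heights compare lines within a gene and not genes with each other. *TGFB2* spreads from -1.29 in H460 to 1.44 in A549, *TGFBR3* sets H2009 apart at -1.32, and *TGFB1* and *SMAD2* stay close to 0.

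With PKCδ shRNA, *SMAD3* fell in 3 lines, *TGFBR2* in H441 and H460, *TGFBR3* in H441 and *TGFBR1* in A549. *TGFB2* rose in H460, and *TGFB3* and *SMAD2* rose in H2009. Of the 40 changes measured (10 genes in 4 lines), 10 passed the test, 7 of them lower and 3 higher. In H2009, 3 of the 10 genes were called (1 lower, 2 higher), against 4.91% of all genes. The H441 arrays gave 3 calls, all lower (14.3% of all genes), and the A549 arrays 2, both lower (4.63%). For H460 there were 2, of which 1 was lower and 1 higher (5.45%). The median change of the 10 genes was -0.12, -0.12, -0.06 and -0.04 for H2009, H441, A549 and H460, and that of all genes 0.01, 0.00, 0.01 and 0.01. At least 1 line had a call for 7 of the 10 genes, against 22.5% of all genes, and *TGFB1*, *SMAD4* and *SMAD7* had none by limma. At an unadjusted p under 0.05 they had 1 among their 12 changes, that of *SMAD4* in H2009. Arrays of δscr and δ193 did not overlap for 7 of the genes among H2009 arrays, 4 for H441, 4 for A549 and 5 for H460, where this held for 25.9%, 21.3%, 24% and 34.2% of all genes. RNA was taken from whole cultures, so fewer cells that express a gene and less RNA per cell cannot be told apart. The summed log2 level of the 7 epithelial markers did not overlap between the arms of H2009 (75.65 to 76.07 in δscr, 74.77 to 75.00 in δ193) or A549 (59.67 to 60.97 in δscr, 61.15 to 61.81 in δ193), where 0 and 1 of them were called. In H460 these sums overlapped, with 1 marker called higher. Sums of lists of other cell types also separated in some lines. In H460 the 6 fibroblast markers gave 26.20 to 26.46 in δscr and 26.91 to 27.54 in δ193 (0 called by limma), the 4 endothelial markers 13.92 to 14.09 and 14.47 to 14.79 (0 called), and the 4 immune markers 13.74 to 14.40 and 14.61 to 15.11 (1 called higher). In A549 the endothelial sums were 14.52 to 14.65 and 14.81 to 15.37 (0 called), and the immune sums overlapped with 1 marker called lower and 1 higher. The part of these shifts in the changes was not tested.

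**Figure D2:**
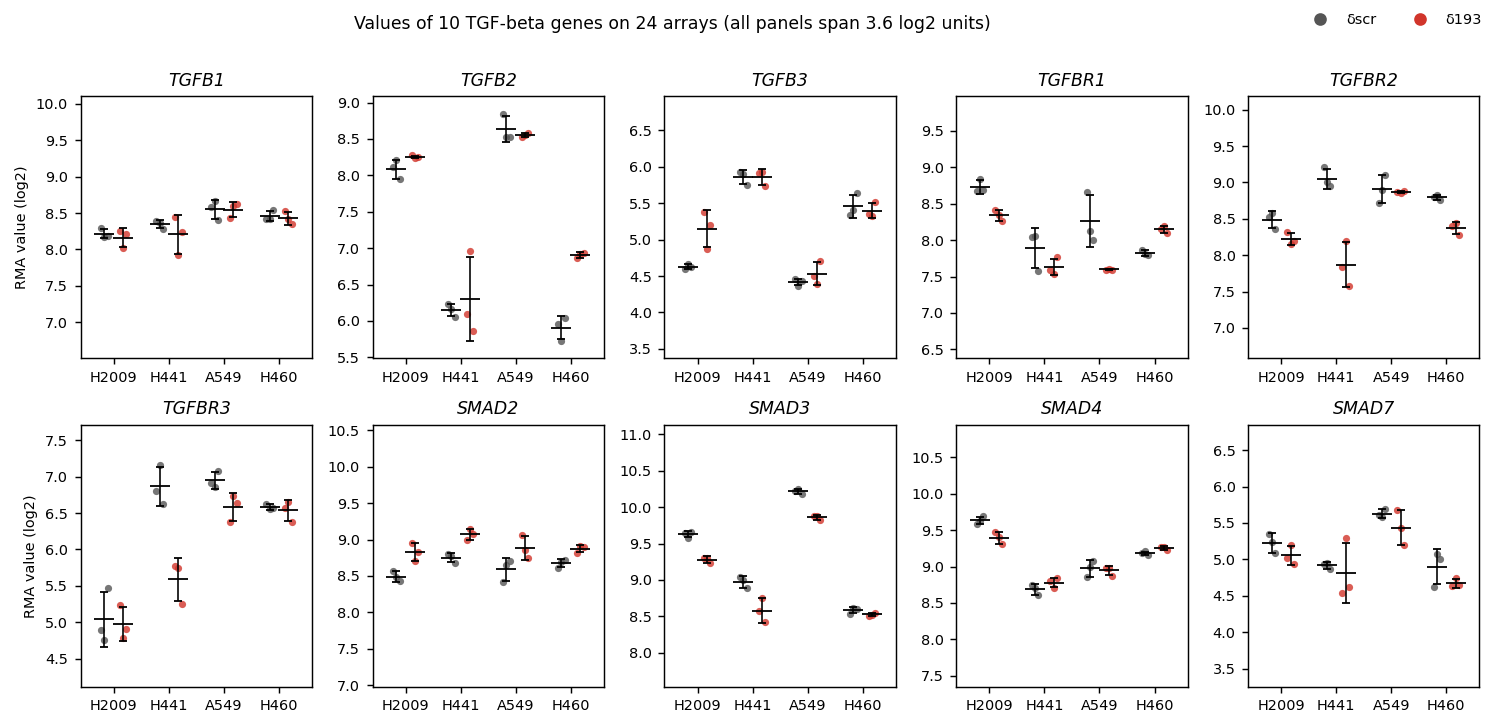
Panels show 1 gene each, with log2 RMA values on the vertical axis and the 4 lines along the horizontal axis. A dot stands for 1 array (δscr grey, δ193 red), and bars give the mean ± SD of 3. All panels span the same number of log2 units. The separations to look for are *TGFBR2* and *TGFBR3* in H441, *TGFB2* in H460, *TGFBR1* in A549 and *SMAD3* in H2009, H441 and A549.

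The 3 genes with the largest changes were *TGFBR3* and *TGFBR2* (both in H441) and *TGFB2* (in H460), and the 250 bases before their transcription starts are shown for that reason, from RefSeq on GRCh38.p14, 5′ to 3′ on the strand of the gene. The start nearest the 5′ end was taken for *TGFBR2*, which has 2 listed. The table of starts held all 10 genes. Capitals mark matches, on either strand, to GGGCGG (the GC box), CCAAT (the CCAAT box), TGANTCA (the AP-1 site), TATAAA (the TATA box) or GTCTAGAC (a SMAD-binding palindrome).
TGFB2, chr1:218345086-218345335, plus strand: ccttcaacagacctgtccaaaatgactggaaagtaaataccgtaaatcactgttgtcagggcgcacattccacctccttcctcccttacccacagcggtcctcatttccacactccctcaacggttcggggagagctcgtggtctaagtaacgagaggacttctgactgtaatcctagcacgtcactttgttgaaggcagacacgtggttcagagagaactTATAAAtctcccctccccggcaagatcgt
TGFBR2, chr3:30606106-30606355, plus strand: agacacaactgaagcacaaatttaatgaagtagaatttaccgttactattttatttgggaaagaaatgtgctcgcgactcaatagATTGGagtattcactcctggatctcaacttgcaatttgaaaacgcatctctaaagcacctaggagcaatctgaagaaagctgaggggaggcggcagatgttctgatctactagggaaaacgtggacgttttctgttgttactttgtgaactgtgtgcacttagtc
TGFBR3, chr1:91886152-91886401, minus strand: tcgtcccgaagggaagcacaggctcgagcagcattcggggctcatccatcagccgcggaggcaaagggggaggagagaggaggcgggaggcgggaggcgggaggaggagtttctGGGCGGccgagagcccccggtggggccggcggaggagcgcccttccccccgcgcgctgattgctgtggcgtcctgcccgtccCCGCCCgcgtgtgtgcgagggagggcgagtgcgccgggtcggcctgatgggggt
The *TGFB2* window held TATAAA 29 bases before the start, a motif found in 10.8% of 34943 such windows. The *TGFBR2* window held CCAAT on the opposite strand, 165 bases before the start (32% of windows). The *TGFBR3* window, with 73.6% G and C against 50.4% and 40.8% in the others, held GGGCGG at 2 places, 136 and 54 bases before the start (42.5% of windows). Neither TGANTCA (6.59% of windows) nor GTCTAGAC (0.183%) was present in these 3 windows, and no matches overlapped.

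Among the ligands, *TGFB2* rose in H460, the line with its lowest δscr mean. The δscr arrays read 5.95, 5.73 and 6.04 and the δ193 arrays 6.86, 6.92 and 6.94. Every δ193 array was thus higher than every δscr array, and the change was 0.999 ± 0.17 (SE, 1.998-fold, adjusted p = 0.000473). The risen level was still below that of H2009 and A549 cells, whose δ193 arrays ran from 8.24 to 8.27 and from 8.53 to 8.58. In H2009 the change was 0.17 (adjusted p = 0.719) and in A549 -0.08 (adjusted p = 0.929). H441 gave 0.16 (adjusted p = 0.592), with δ193 arrays at 6.10, 6.96 and 5.86 that differed among themselves by more than they differed from δscr.

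*TGFB3* rose in H2009, from 4.59, 4.67 and 4.63 to 5.38, 4.87 and 5.20, by 0.52 ± 0.11 (SE, 1.44-fold, adjusted p = 0.00585). These groups did not overlap, but the call rested in part on the highest array, since without δ193 replicate 1 the change was 0.41 and the adjusted p 0.052. In the other lines *TGFB3* gave -0.0010 (H441), 0.11 (A549) and -0.06 (H460), none passing. *TGFB1*, the ligand that is most widely expressed in epithelium, lay between 7.92 and 8.66 over all 24 arrays, and its changes ran from -0.14 in H441 to -0.0047 in A549 with all groups overlapping. The 95% confidence intervals of those 4 changes stayed within -0.37 and 0.22.

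The largest changes were in the receptor genes of H441. *TGFBR2* read 9.21, 9.0003 and 8.95 on the δscr arrays and 7.84, 8.20 and 7.57 on the δ193 arrays. No array of the groups overlapped, and the gene fell by 1.18 ± 0.12 (SE, 2.27-fold, adjusted p = 3.15e-07, and 0.00681 with H441 fitted alone). *TGFBR3* read 6.81, 7.16 and 6.63 against 5.78, 5.75 and 5.25, and fell by 1.27 ± 0.17 (SE, 2.42-fold, adjusted p = 1.48e-05, and 0.0071 with H441 fitted alone). Among the δscr groups H441 had the highest *TGFBR2* mean, although it was not told apart from A549 (adjusted p = 0.324 by limma). Among the δ193 groups it had the lowest, at 7.87 ± 0.31, a rank that was not tested. The summed log2 level of the 7 epithelial markers moved the same way in H441, from between 62.96 and 64.01 to between 59.91 and 61.11, with 2 of the 7 called lower, and none of them was at 0. Its part in the receptor changes was not tested.

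*TGFBR2* was also lower in H460, where the δscr arrays read 8.80, 8.82 and 8.76 and the δ193 arrays 8.40, 8.44 and 8.27. The fall was 0.42 ± 0.12 (SE, adjusted p = 0.0373), with no overlap of the arrays. The call was lost when any of the 6 H460 arrays was left out (highest adjusted p = 0.173) and after repeated quantile or cyclic loess normalization (0.116 and 0.118), but the adjusted p was 0.0041 with H460 fitted alone. In H2009 *TGFBR2* changed by -0.26 (adjusted p = 0.27) with δ193 arrays of 8.32, 8.16 and 8.20 that all lay below the lowest δscr array at 8.36. A549 gave -0.04, with a 95% confidence interval of -0.29 to 0.21. For *TGFBR3* the changes outside H441 were -0.07 in H2009, -0.37 in A549 (adjusted p = 0.297, arrays not overlapping) and -0.05 in H460. The H2009 means of *TGFBR3* were 5.04 in δscr and 4.98 in δ193, both below the median of the gene means. A fall from so low a signal may not be seen.

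*TGFBR1* fell in A549, from 8.67, 8.12 and 8.004 to 7.60, 7.61 and 7.60. The δ193 arrays were nearly equal while the δscr arrays were far apart, and the fall was 0.66 ± 0.13 (SE, 1.585-fold, adjusted p = 0.00263). Without δscr replicate 1, the highest array, the fall was 0.46 and the gene was still called. H460 cells had the opposite sign. Their δscr arrays read 7.87, 7.81 and 7.80 and their δ193 arrays 8.15, 8.20 and 8.10, a change of 0.32 that missed the threshold in the shared fit (adjusted p = 0.19) and passed it with H460 fitted alone (0.00893). In H2009 the change was -0.39 (adjusted p = 0.0967, and 0.0348 with H2009 fitted alone), from between 8.67 and 8.84 to between 8.26 and 8.41. In H441 it was -0.26 (adjusted p = 0.202) with overlapping arrays.

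The receptor-activated SMAD genes had opposite signs. *SMAD3* fell with δ193 in 3 lines. In H2009 the arrays went from 9.65, 9.58 and 9.66 to 9.30, 9.31 and 9.23, in H441 from 9.03, 8.99 and 8.89 to 8.57, 8.75 and 8.42, and in A549 from 10.22, 10.25 and 10.18 to 9.88, 9.87 and 9.82. None of these 3 pairs of groups overlapped. The falls were 0.35 (adjusted p = 0.00778), 0.39 (adjusted p = 0.0011) and 0.36 (adjusted p = 0.00604), each with an SE of 0.08, or 1.275-fold, 1.31-fold and 1.28-fold. With H441 fitted alone that line's adjusted p was 0.185, and without its δ193 replicate 3 the fall was 0.31, under the fold required. H460, which had the lowest *SMAD3* among the δscr groups, gave 8.54, 8.62 and 8.59 against 8.51, 8.52 and 8.55. The change was -0.06 with a 95% confidence interval of -0.22 to 0.11.

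*SMAD2* was higher on every δ193 array than on every δscr array of its line, in all 4 lines. Across all genes 0.945% had arrays that did not overlap in any line with the same direction in all 4. In H2009 the arrays went from 8.57, 8.48 and 8.43 to 8.95, 8.71 and 8.83, in H441 from 8.81, 8.77 and 8.68 to 8.99, 9.14 and 9.07, in A549 from 8.41, 8.66 and 8.70 to 9.06, 8.86 and 8.74, and in H460 from 8.62, 8.69 and 8.72 to 8.82, 8.91 and 8.90. The changes were small. That of H2009 passed both thresholds (0.34 ± 0.09, adjusted p = 0.0355), that of H441 passed the test but not the fold (0.32, 1.246-fold, adjusted p = 0.0213), and those of A549 (0.30, adjusted p = 0.0723) and H460 (0.20, adjusted p = 0.281) did not pass. The H2009 call was lost without δscr replicate 1, 2 or 3 or δ193 replicate 1 or 3, with an adjusted p of up to 0.171, with a replicate block (0.0876), with H2009 fitted alone (0.0677) and with array medians set equal (0.0721). A further transcript cluster of *SMAD2*, with a lower mean of 7.37, changed by 0.39, -0.10, 0.41 and 0.18 in H2009, H441, A549 and H460, so the clusters differ in sign in H441.

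*SMAD4* and *SMAD7* were not called in any line. *SMAD4* changed by -0.24 in H2009 (adjusted p = 0.0813), where the δ193 arrays, at 9.48, 9.40 and 9.31, lay below the δscr arrays, at 9.59, 9.62 and 9.69. Its other changes ran from -0.03 in A549 to 0.09 in H441. For *SMAD7* the 4 changes were -0.17, -0.10, -0.20 and -0.23 in H2009, H441, A549 and H460, none with an adjusted p below 0.512, and every pair of groups overlapped. The 95% confidence interval of *SMAD7* included 0 in each line, with the lowest limit at -0.55 (H460) and the highest at 0.22 (H441). Changes within a line's own interval are not excluded there. Its mean change over the 4 lines was -0.17 (95% confidence interval -0.33 to -0.02, adjusted p = 0.144 by limma).

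**Figure D3:**
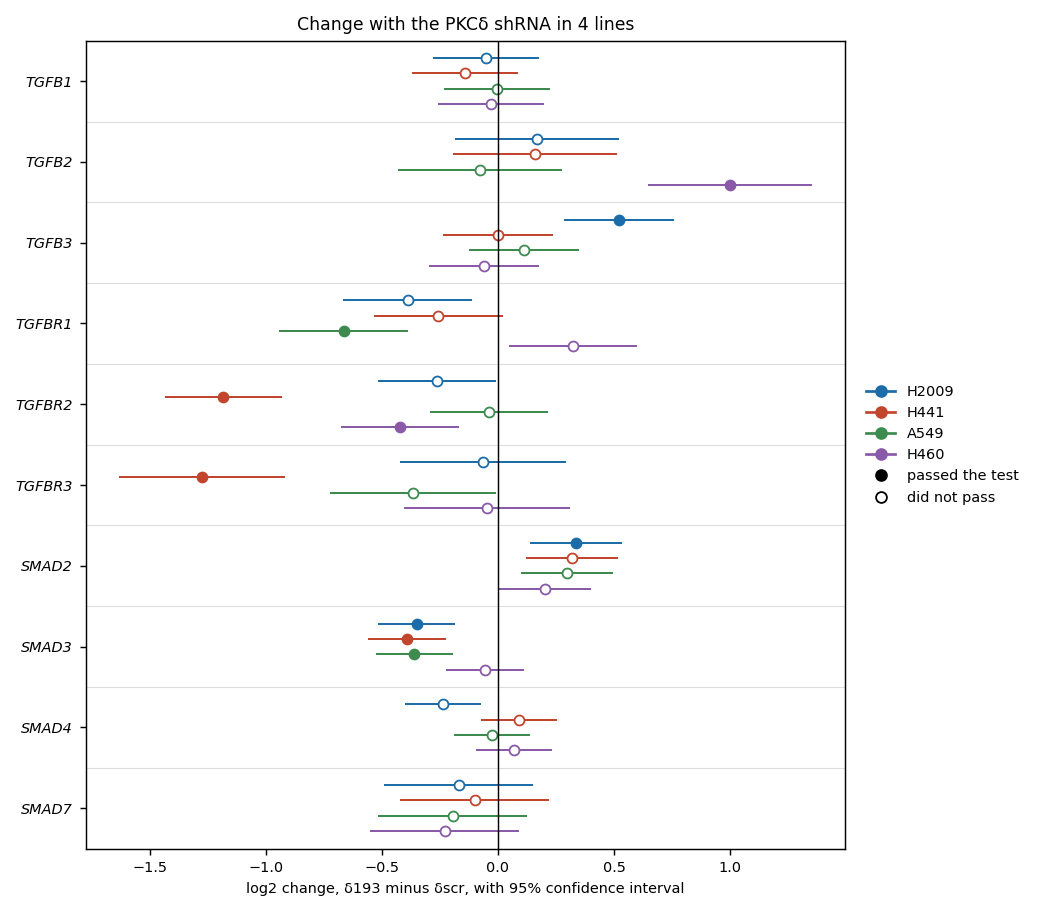
Log2 change, δ193 minus δscr, with its 95% confidence interval from limma, for each gene (rows) and line (colours). Filled points passed the test (adjusted p under 0.05 and a change of at least 25%) and open points did not. *TGFBR2* and *TGFBR3* in H441 lie at -1.18 and -1.27, *TGFB2* in H460 at 0.999, the *SMAD2* points all lie to the right of 0, and the *SMAD3* points of H2009, H441 and A549 to the left.

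Whether the change depended on the line was asked directly, with an F test over the 4 changes. It passed for 5 of the 10 genes, against 14.1% of all genes: *TGFBR2* (adjusted p = 0.000277), *TGFBR3* (0.00233), *TGFBR1* (0.00447), *TGFB2* (0.0122) and *TGFB3* (0.0418). All 5 were receptors or ligands. It did not pass for the SMAD genes *SMAD3* (0.101), *SMAD4* (0.117), *SMAD2* (0.861) and *SMAD7* (0.973), nor for *TGFB1* (0.909). The *TGFB3* result was lost on leaving out any of 15 of the 24 arrays (adjusted p up to 0.145). *SMAD3* passed without H441 δ193 replicate 2 (0.0182). The fall of *PRKCD* itself differed among the lines by this test (adjusted p = 0.0261) and was smallest in A549 (change -1.26). A different response of a line and a different depth of knock-down cannot be told apart here.

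Pairs of lines were then compared (adjusted p under 0.05, no fold required). Differences in change passed for 3 of the 10 genes between H2009 and H441 (7.12% of all genes), 0 between H2009 and A549 (3.51%), 3 between H2009 and H460 (4.21%), 2 between H441 and A549 (9.40%), 3 between H441 and H460 (4.83%) and 2 between A549 and H460 (4.63%). *TGFBR2* fell more in H441 than in H2009 (difference, H2009 minus H441, 0.92, adjusted p = 0.00137), A549 (H441 minus A549, -1.14, adjusted p = 0.000109) and H460 (H441 minus H460, -0.76, adjusted p = 0.0114). *TGFBR3* likewise fell more in H441 than in the other 3 lines, by 0.91 to 1.23 (highest adjusted p = 0.0175), although its signal in H2009 was low in both arms. All these tests use the spread shared over the lines. The residual SD of *TGFBR2* was 0.24 in H441 against 0.10 (H2009), 0.13 (A549) and 0.07 (H460). The shared fit may thus understate the error of its H441 change. For *TGFBR3* the residual SD was 0.28 in H441, 0.31 in H2009, 0.16 in A549 and 0.10 in H460. *TGFB2* rose more in H460 than in each other line, by 0.83 to 1.08, although the comparison with H2009 was close to the threshold (adjusted p = 0.0495). For *TGFBR1* the changes in A549 and H460, both K-ras independent, differed by 0.99 (adjusted p = 0.00193), and H2009 differed from H460 by 0.71 (adjusted p = 0.0283). H2009 and A549, of different classes, gave 0 passes in limma, and 1 of the 10 genes had an unadjusted p under 0.05 there, namely *TGFB3*.

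The study's classes were compared as the mean change in H2009 and H441 minus that in A549 and H460. Only *TGFBR2* of the 10 genes passed (-0.49, 95% confidence interval -0.74 to -0.24, adjusted p = 0.0173), where 4.99% of all genes did. The lines within a class were not alike for this gene. With H441 alone as the dependent line the difference was -0.95 (95% confidence interval -1.26 to -0.65), and with H2009 alone it was -0.03 (-0.34 to 0.27). The class difference of *TGFB2* was -0.30 (adjusted p = 0.382), and passed only without H441 δ193 replicate 2 (-0.46, adjusted p = 0.00657). In the mean change over the 4 lines, *TGFBR2* (-0.48, adjusted p = 5.11e-06) and *TGFBR3* (-0.44, adjusted p = 0.000813) were called, 2 of 10 genes against 3.63% of all genes. On adjusted p alone 6 of the 10 passed, against 15.0% of all genes, the others being *SMAD3* (-0.29, adjusted p = 1.26e-05), *SMAD2* (0.29, adjusted p = 0.00012), *TGFBR1* (-0.25, adjusted p = 0.0118) and *TGFB2* (0.31, adjusted p = 0.013). The class difference of *PRKCD* itself was -0.68 (adjusted p = 0.0516 by limma), which did not pass. The p values of the class and mean tests rest on the spread among replicate arrays and do not measure the spread among lines. *TGFBR3*, for example, changed by -0.07, -1.27, -0.37 and -0.05 in H2009, H441, A549 and H460.

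The surrounding pathway was followed in 6 lists of 81 genes, of which 77 were analysed here. H2009 had 6 of them called lower and 2 higher (10.4% in all), H441 14 and 8 (28.6%), A549 7 and 0 (9.09%) and H460 2 and 8 (13%), against the shares of all genes given above. The median change of the 77 genes was -0.02, -0.04, -0.08 and 0.05 in that order of lines. With H441 fitted alone 6 of the 77 genes were called there instead of 22, and 2.18% of all genes instead of 14.3%. In all, 36 of the 77 genes (46.8%) were called in at least 1 line, against 22.5% of all genes, and the F test of unequal change passed for 26, where it passed for 14.1% of all genes. A549 had 0 calls in the higher direction by limma, where 3 genes had an unadjusted p under 0.05, and 8 of the 10 calls in H460 were higher.

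Genes that hold latent TGF-β in the matrix or release it (13 genes) had 2, 5, 1 and 3 calls in H2009, H441, A549 and H460. These were 15.4%, 38.5%, 7.69% and 23.1% of the list, against 4.91%, 14.3%, 4.63% and 5.45% of all genes. *ITGAV*, the αV integrin chain that binds the latent ligand, was lower in H2009 (-0.43, adjusted p = 0.00238), H441 (-0.80, adjusted p = 4.58e-07, and 0.0111 fitted alone) and H460 (-0.44, adjusted p = 0.00171), and in A549 its change was -0.07 (adjusted p = 0.846). *ITGB6*, the β chain that pairs with it in epithelium, was lower in A549, where its mean went from 6.07 ± 0.41 to 4.89 ± 0.23 (-1.18, adjusted p = 6.51e-05). *LTBP3*, a latent TGF-β binding protein, fell in H2009 (-0.47, adjusted p = 0.000697) and H441 (-0.51, adjusted p = 0.000103, and 0.0691 fitted alone). *FBN1*, the microfibril protein fibrillin-1 to which those binding proteins attach, went down in H441 (-0.80, adjusted p = 0.00014, and 0.0262 fitted alone) and up in H460 (0.87, adjusted p = 0.000112).

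The 14 receptor partners and regulators had 2, 1, 3 and 1 calls in the same order (14.3%, 7.14%, 21.4% and 7.14%). In H441 that was below the share of all genes. *PMEPA1*, an inhibitor that the pathway induces and that keeps SMAD2 and SMAD3 from the receptor, fell in A549 (-0.82, adjusted p = 0.000796). *TGFBR1* was called lower in that line only, and *SMAD3* also in H2009 and H441, where *PMEPA1* was not called. The δscr means of *PMEPA1* were 9.50 in A549, 6.23 in H2009, 4.83 in H441 and 4.55 in H460. Its other changes were -0.21 (H2009), -0.24 (H441) and 0.21 (H460). The 11 nuclear partners and repressors had 4 calls in H441 (36.4%) and 0 in H2009, A549 and H460 by limma, where 1, 1 and 4 had an unadjusted p under 0.05. The 13 genes of the activin and nodal branch had 0, 1, 1 and 1 calls (0%, 7.69%, 7.69% and 7.69%), in H441 below the share of all genes. In H2009, 4 of the 13 genes had an unadjusted p under 0.05.

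Of 22 genes that TGF-β is known to induce, 1 fell and 2 rose in H2009, 4 fell and 5 rose in H441, 2 fell and 0 rose in A549, and 0 fell and 4 rose in H460. These were 13.6%, 40.9%, 9.09% and 18.2% of the list, against 4.91%, 14.3%, 4.63% and 5.45% of all genes. By an unadjusted p under 0.05 in limma, 1 was higher in A549 and 0 were lower in H460. *IL11*, a cytokine gene, had the largest change of the list in both H441 and H460, with means of 6.07 ± 0.10 and 7.51 ± 0.20 in H441 (1.43, adjusted p = 2.77e-09, and 0.000858 fitted alone) and 5.78 ± 0.03 and 7.36 ± 0.05 in H460 (1.58, adjusted p = 9.38e-10). It changed by 0.20 in H2009 (adjusted p = 0.357) and -0.09 in A549 (adjusted p = 0.806). *TGFBI*, a matrix protein named for its induction by TGF-β, was lower in H2009 (-0.45, adjusted p = 0.0319) and H441 (-0.42, adjusted p = 0.02, and 0.28 fitted alone) and higher in H460 (0.53, adjusted p = 0.00922). The H2009 call was lost without any of the 6 H2009 arrays, the H441 call without δscr replicate 1 or δ193 replicate 3, and the H460 call without δ193 replicate 1.

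*FN1*, fibronectin, fell in H441 (-1.27, adjusted p = 0.000571, and 0.00183 fitted alone). Its H460 arrays were lower in δ193 without overlap, with means of 5.88 ± 0.12 in δscr and 5.41 ± 0.08 in δ193. Such separation held for 34.2% of all genes in H460. The H460 change of *FN1* did not reach an unadjusted p under 0.05 in the shared fit. The spread of that fit includes the A549 δscr arrays of *FN1*, with an SD of 0.89. *COL4A2*, a basement membrane collagen, rose in H2009 (0.46, adjusted p = 0.00235). *CCN1*, a matricellular protein, rose in H460 (0.83, adjusted p = 0.0231), a call lost without δscr replicate 1 or 2 or any δ193 replicate of H460. In A549, *ADAM19*, a membrane protease, fell by 0.62 (adjusted p = 0.000849), and *JUNB*, a transcription factor of the AP-1 family, by 0.56 (adjusted p = 0.0489), a call that held on leaving out 5 of the 24 arrays and was lost on leaving out any other.

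Of the 4 genes that TGF-β is known to lower, *ID2*, an inhibitor of helix-loop-helix factors, was lower in H2009 (-0.52, adjusted p = 0.0231), H441 (-1.19, adjusted p = 1.69e-06, and 0.00567 fitted alone) and H460 (-0.77, adjusted p = 0.000765), and its change in A549 was 0.17 (adjusted p = 0.677). The H2009 call was lost without δscr replicate 1 or 3 or δ193 replicate 2 or 3. *CDH1*, E-cadherin, which is also on the list of epithelial markers, fell in H441 (-1.20, adjusted p = 0.0012, and 0.0676 fitted alone), from a mean of 6.41 ± 0.21 to 5.20 ± 0.73. In H460 *CDH1* changed by -0.70 (adjusted p = 0.104 in the shared fit). Its H460 arrays did not overlap, with 5.54 to 5.71 in δscr and 4.86 to 4.95 in δ193, as for 34.2% of all genes.

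**Figure D4:**
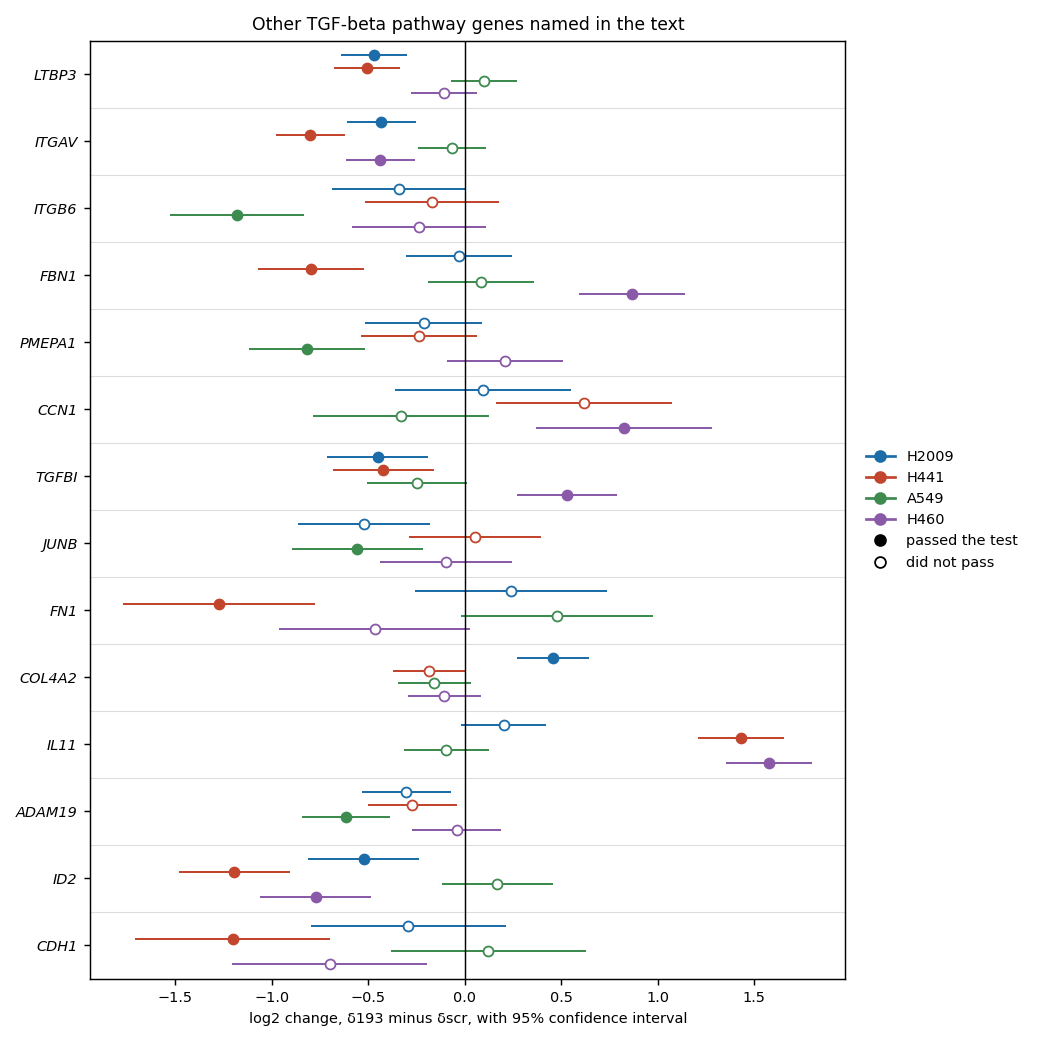
Log2 change, δ193 minus δscr, with its 95% confidence interval, of the 14 other pathway genes described in the text (rows) in the 4 lines (colours), with filled points for changes that passed the test. *IL11* rises to 1.43 in H441 and 1.58 in H460, *FBN1* and *TGFBI* lie on opposite sides of 0 in H441 and H460, and *ITGB6*, *PMEPA1* and *ADAM19* fall in A549.

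For the 6 genes whose 8 group means span at least 1 on the log2 scale, the genes with the most similar pattern were sought by the root mean square difference over those 8 means, each gene centred on its own mean. Nearest to *TGFB2* were *IRS1* (0.30), *CPEB2* (0.31) and *PXDC1* (0.32), against a span of 2.73 for *TGFB2* itself. *TGFB3* (span 1.44) was nearest to *TARS2* (0.0957), *ASB13* (0.11) and *SMIM10* (0.13). The receptor *TGFBR1* (span 1.13) was nearest to *ZDHHC14* (0.15), *SLC31A2* (0.16) and *RAI14* (0.16), *TGFBR2* (span 1.18) to *CASTOR3P* (0.18), *MAN2B1* (0.18) and *PLXNB2* (0.185), and *TGFBR3* (span 1.97) to *RDH10* (0.22), *TENM3* (0.26) and *CXCL16* (0.27). *SMAD3* (span 1.69) was nearest to *TNFRSF10D* (0.12), *TMEM50B* (0.14) and *RIPK4* (0.15). These are descriptions over 8 group means.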

How the data were processed

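RNA of 24 samples was hybridised to Affymetrix human gene arrays, 1 array each. The deposited values are on the log2 scale, made by the authors with Affymetrix Power Tools and RMA. RMA subtracts background, forces a common distribution onto all arrays and combines the probes of each transcript cluster, so a shift shared by all genes would not be seen. The sources used here give no software versions and no genome build. Of 33252 clusters, 19460 had 1 symbol in the platform annotation, and they gave 18417 genes, each represented by its cluster with the largest mean. With limma 3.58.1 in R 4.3.3, 1 mean per group was fitted over all 24 arrays with a shared spread per gene. The Benjamini-Hochberg adjustment covered all genes within each comparison. Calls needed an adjusted p under 0.05 and a difference of at least 25%, except the F test, the class test and the comparisons of changes between lines, which needed the adjusted p alone. The study's methods name Student's test within each line, which was run as an alternative. The scripts were tested on simulated data. Levels were not compared between genes, whose probes differ. The number of arrays limits the precision.

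The 10 genes, the gene lists, the tests and the alternatives were chosen with earlier results of these data known, and the fit without the H441 arrays was added after the values were seen. Named are the 10 genes and *PRKCD*, of the other pathway lists the 4 called genes with the largest change in each line and every gene called in 3 or 4 lines, and the 3 genes nearest in pattern to each of the 10 genes whose group means span at least 1. Single markers were named after their values were seen. The study's methods describe the replicates as biological.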

Additional observations from a re-analysis of the deposited data

Results flagged for a closer look

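The change with knock-down differed among the lines for 5 of the 10 genes by the F test of limma, each of which is given with its adjusted p. For *TGFB2* it was 0.0122, with a rise in H460. For *TGFB3* it was 0.0418, with a rise in H2009. For *TGFBR1* it was 0.00447, with a fall in A549 and a change of the opposite sign in H460 that did not pass. For *TGFBR2* it was 0.000277 and for *TGFBR3* 0.00233, both with their largest fall in H441. The change of *TGFBR2* also differed between the K-ras classes (adjusted p = 0.0173). With H441 alone as the dependent line this difference was -0.95, and with H2009 alone it was -0.03. The change in H2009 was -0.26, and in H460, of the other class, -0.42.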

How the results depend on the processing

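Counts of calls were recomputed under 14 alternatives and after leaving out each of the 24 arrays, and 561 of 600 recomputed counts lay within 1.5 times the reported one. For 15 single changes, chosen because the main fit or an alternative called them, 565 values were recomputed. Of these 32 lost the call and 17 gained one. None reversed, but many recomputations dropped an array of another line or changed only the test or limits. Those leave the estimate as it was and could not reverse it. With Student's test of the study's methods, unadjusted, 18 other pathway genes were called in H460, against 10 (8.73% of all genes, against 5.45%). After adjustment it called 1 of the 10 genes in H2009, 0 in H441 and 0 in A549, and 2, 0 and 0 other pathway genes there. Unadjusted, it called 4, 3 and 3 of the 10 genes, against 7.23%, 9.76% and 6.2% of all genes. In H460 Student's test called *TGFB2* (adjusted p = 0.0185), *TGFBR1* (0.0257) and *TGFBR2* (0.0305), and the same genes unadjusted. With each line fitted alone by limma, 6 other pathway genes were called in H441 (2.18% of all genes) and 18 in H460 (8.6% of all genes). With stricter limits (adjusted p under 0.01, fold 1.5) limma called 0, 1 and 1 of the 10 genes in H2009, A549 and H460, and 0, 10, 3 and 4 other pathway genes in H2009, H441, A549 and H460. The same limits left 3 genes in the F test, 0 in the class test, 0 in the mean change, 3 between H2009 and A549 δscr arrays and 0 between H441 and H460. Array weights gave 2 genes in the class test. Repeated quantile normalization gave 1 gene in H460, and cyclic loess 1. Among genes above the median, which leaves 8 of the 10 without *TGFB3* and *SMAD7*, 3 differed between H441 and A549 and 3 between A549 and H460 δscr arrays. On adjusted p alone, 6 passed in the mean change (15.0% of all genes). Shares of all genes are not given for the remaining alternatives or the arrays left out, so those counts show only how the calls move.

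Leaving out single arrays gave 1 to 4 calls among the 10 genes for H2009, 2 to 4 for H441, 2 to 3 for A549 and 1 to 2 for H460, where 1 was reached on leaving out any of its arrays. The low count of H2009 came without its δ193 replicate 1. Other pathway genes ranged over 4 to 9 for H2009, 18 to 24 for H441, 5 to 7 for A549 and 7 to 14 for H460. The F test ranged over 4 to 6 genes, the class test over 1 to 2 (2 without H441 δ193 replicate 2), the mean change over 2 to 3, and the δscr comparison of H2009 and A549 over 5 to 8 (5 without A549 δscr replicate 1 or 3).

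The replicate numbers were not taken to pair the samples: of 12 same-numbered pairs, 2 correlated above 0.1 (range -0.09 to 0.28), and 11 of 24 arrays correlated best with their own number. With the replicate block 2 of the 10 genes were called for H2009 (*SMAD2* lost), 3 for H441, 2 for A549 and 2 for H460, and the other counts stayed within 1.5 times. The fit without the H441 arrays, added after the data were seen, called *TGFBR1* in H2009 (adjusted p = 0.0399). Causes of these shifts were not tested.

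The main limits are 3 arrays a group, 1 shRNA sequence, the larger spread of the H441 arrays and the unequal fall of *PRKCD* among the lines. The signal of *TGFB3* and *SMAD7*, and of *TGFBR3* in H2009, was low, and no background level was measured.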
